A study of Mus musculus with 9 samples.

Results

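Sensory neurons of the dorsal root ganglion signal partly through neuropeptides, and the levels of 10 precursor genes, Gal, Npy, Vip, Nts, Adcyap1, Calca, Calcb, Tac1, Sst and Nppb, were followed here. They were chosen by symbol, as neuropeptide genes of sensory neurons, with earlier results of these data known. They are 10 of the 45904 identifiers in the deposited table. Messenger RNA of whole sciatic dorsal root ganglia, which hold sensory neurons and their glia, was sequenced for C57BL/6 mice, in 3 groups of 3 libraries. Young sham mice were 8 to 10 weeks old and had sham surgery. Aged sham mice were 20 to 22 months old and had sham surgery, and aged injury mice were of the same age and had a sciatic nerve injury, whose kind the labels do not give. Ganglia of every group were taken 24 h after surgery, and each library pooled 2 mice. A young injured group is not analysed here.

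A neuropeptide is cut from a longer precursor by proprotein convertases, often amidated at its end, stored in dense core vesicles and released to act on G protein-coupled receptors. Peptidergic nociceptors, the pain-sensing neurons of the ganglion, are known for calcitonin gene-related peptide (CGRP, from Calca and Calcb) and substance P (from Tac1), while Nppb, Sst and Nts mark a class of neurons tied to itch. Galanin (Gal), neuropeptide Y (Npy), vasoactive intestinal peptide (Vip) and PACAP (Adcyap1) are known as peptides that rodent sensory neurons make more of after their axon is cut.

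After nerve injury in aged mice 3 of the 9 precursor genes that could be tested were called higher, namely Npy, Adcyap1 and Gal. None was called lower, and 4.11% of all tested genes were called in either direction. The call of Gal was the least stable, held in 3 of 9 fits with 1 library left out. The windows of 250 bases upstream of the annotated start of the 3 genes, from RefSeq on GRCm38.p6, are shown because all 3 were called higher. Capitals mark TGACG, 5 of the 8 letters of the cyclic AMP response element, found in 1 of the 3 windows. The bases after the capitals extend that match to all letters of the element but the last.
Gal, chr19:3414545-3414794, minus strand: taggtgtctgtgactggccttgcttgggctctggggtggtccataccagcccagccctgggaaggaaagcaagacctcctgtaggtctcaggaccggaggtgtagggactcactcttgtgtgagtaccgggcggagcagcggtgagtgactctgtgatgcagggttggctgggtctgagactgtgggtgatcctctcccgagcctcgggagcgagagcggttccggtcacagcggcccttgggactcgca
Npy, chr6:49822460-49822709, plus strand: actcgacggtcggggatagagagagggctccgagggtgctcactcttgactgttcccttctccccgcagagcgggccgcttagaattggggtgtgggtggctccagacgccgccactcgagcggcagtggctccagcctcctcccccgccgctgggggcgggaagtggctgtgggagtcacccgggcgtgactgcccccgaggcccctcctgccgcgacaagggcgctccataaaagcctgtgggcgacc
Adcyap1, chr17:93198767-93199016, plus strand: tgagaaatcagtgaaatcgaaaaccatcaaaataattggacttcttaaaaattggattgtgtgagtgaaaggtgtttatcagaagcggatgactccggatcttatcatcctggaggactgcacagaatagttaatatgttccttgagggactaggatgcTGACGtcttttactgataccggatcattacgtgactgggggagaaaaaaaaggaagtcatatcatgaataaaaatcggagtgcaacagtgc

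These windows and those of the other genes were searched on both strands for TGACGTCA (the full cyclic AMP response element), CGTCA (5 letters of that element, which lie within it on both strands and read TGACG on the other strand) and TGANTCA (the AP-1 motif). Of the 10 genes, 9 had a RefSeq window. The windows of Gal, Npy and Nppb held none of the 3 motifs. Adcyap1 held the 5-letter element 91 to 87 bases upstream of the start shown above, a site 242 to 238 bases upstream of its other RefSeq start. In Adcyap1 and Vip the match ran through all letters of the full element but the last. Sst held the full element 48 to 41 bases upstream, which 1.55% of 32851 RefSeq windows of the same length also held. Nts held an AP-1 motif 207 to 201 bases upstream, a motif found in 6.75% of windows, and Vip, Nts, Calca and Tac1 held the 5-letter element, found in 17.8%. Within these windows Gal, Npy and Adcyap1 had none of the searched motifs in common, and the full element was found only in Sst, which was not called. The search covered exact letters in these windows only. Whether these motifs had a part in the rise was not tested. A match of letters is a description, and binding was not measured.

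The libraries differed in more than age and surgery. The relative depth, read from the step that 1 read makes in the FPKM values, ran from 0.8461 in aged sham replicate 2 to 1.225 in aged injury replicate 1, with young sham replicate 1 as 1. The summed level of 4 Y-linked genes was at 93% to 106% of the young mean in the young sham libraries, at 69.7% in aged sham replicate 1 and at most at 0.0426% in the other aged libraries, so that age and the sex of the pools cannot be told apart. Within groups this level varied widely only in aged sham, so fits with it as a covariate rest largely on aged sham replicate 1. Such fits do not separate age from sex. The 12 sensory neuron markers summed to between 4850 and 5902 FPKM in every library. None of the 12 had a positive log2 change after injury, with a median of -0.14, and Isl1 was called lower after injury (adjusted p = 0.0391), as were Isl1 and Pou4f1 with age (adjusted p = 0.0284 and 0.0169). Of 8 markers of motor neurons and the central nervous system, 4 were never above 0.3 FPKM. Among these 4 was Chat, at most at 0.032 FPKM. Isl2, of the same list, was at 47.63 to 81.4 FPKM and was called lower after injury (log2 change -0.60, limma adjusted p = 0.0108). Slc1a2, also listed, was called higher with age (log2 change 1.17, limma adjusted p = 0.0167).

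The unit, FPKM, counts fragments relative to gene length and library depth, so levels can be compared between genes within a library. Comparisons between libraries also depend on scaling, as the counts of calls given below show. By mean level over the 9 libraries the order was Calca (1000 FPKM), Tac1 (277 FPKM), Calcb (107 FPKM), Adcyap1 (98.4 FPKM), Gal (44.4 FPKM), Nppb (16.9 FPKM), Nts (16.3 FPKM), Sst (7.68 FPKM), Npy (6.03 FPKM) and Vip (0.0428 FPKM). Calca, Tac1 and Vip stood apart from their neighbours in this order, with ranges over the 9 libraries that did not overlap, and the ranges of all other neighbours overlapped. Part of the order differed between groups. Adcyap1 was below Calcb in all 6 sham libraries and above it in all 3 aged injury libraries, and Npy was below Sst in all 3 young sham libraries and above it in all 3 aged injury libraries. In whole ganglia, a higher level in each neuron and more neurons with the RNA cannot be told apart.

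**Figure D1:**
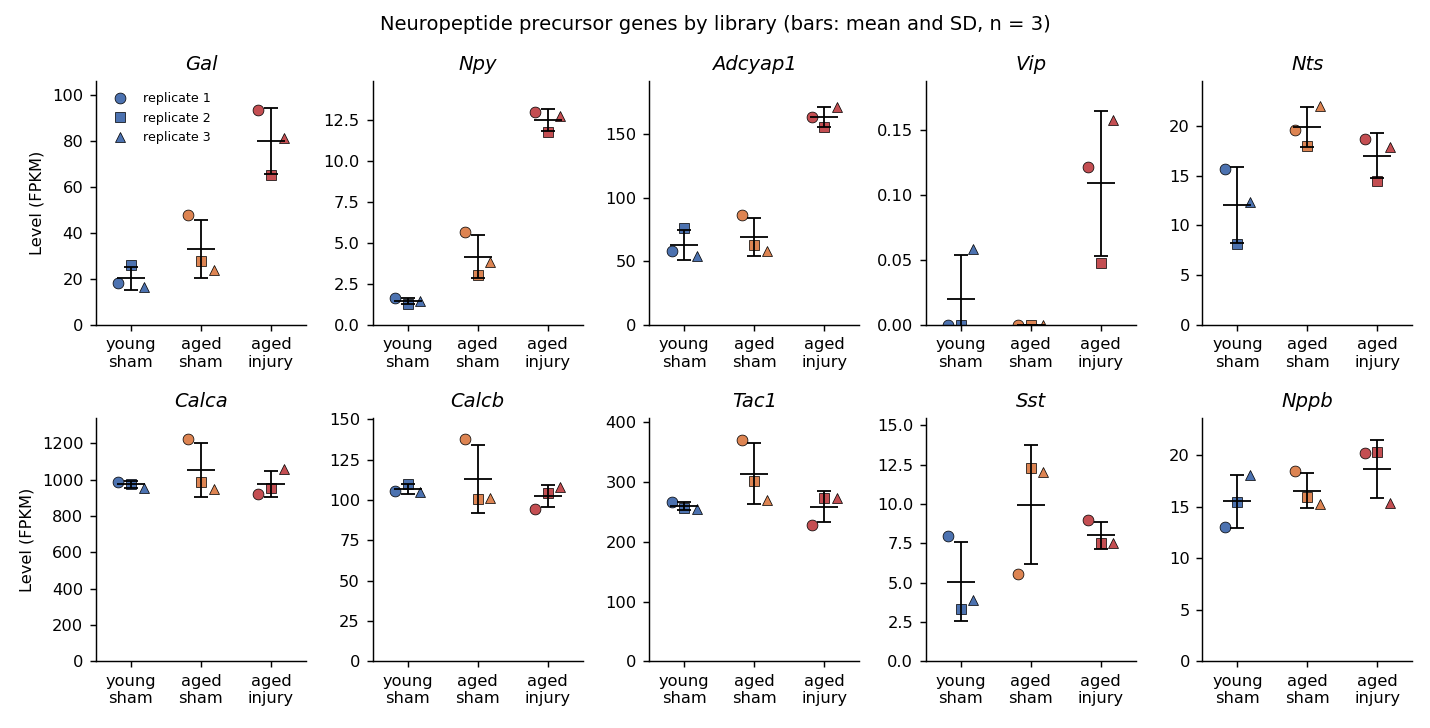
Level in FPKM (vertical axis, from 0) of the 10 precursor genes in each library of the 3 groups (horizontal axis). Points are libraries, shaped by replicate number, and bars are the mean and SD of 3; Gal, Npy and Adcyap1 of the aged injury libraries lie above all other libraries, while Calca, Calcb and Tac1 overlap between aged sham and aged injury.

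The comparison of injured with sham-operated aged ganglia asked which precursors changed 24 h after injury. In limma's moderated test on log2(FPKM + 0.1), with Benjamini-Hochberg adjustment over all 17601 genes tested and a call at an adjusted p under 0.05, 3 of 9 tested genes were called, all higher, against 4.11% of all tested genes (2.45% called higher and 1.65% lower). The median log2 change of the 9 was -0.10, against -0.011 over all tested genes. Besides the 3 called genes only Nppb had a positive log2 change, and the remaining genes had negative changes that were not called. Vip lay below the minimum mean of 0.2 FPKM and was not tested.

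Npy (chr6:49822710-49829507, plus strand, GRCm38) encodes the precursor of neuropeptide Y, an inhibitory peptide that sensory neurons make at low levels. It measured 5.63, 3.01 and 3.84 FPKM in the aged sham libraries and 13.01, 11.73 and 12.75 FPKM in the aged injury libraries. Every aged injury library was above every aged sham library, as also for Adcyap1 and Gal and for 25.4% of all tested genes, and the spread within the injured group was the smaller of the pair (12.5 ± 0.678 against 4.16 ± 1.34 FPKM; SD, n = 3 each). Npy rose 3.05-fold (log2 change 1.61, SE 0.192, limma adjusted p = 0.0049). This call held in all 9 fits that left out 1 library and in all 7 other settings.

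Adcyap1 (chr17:93199017-93206537, plus strand) encodes PACAP, a peptide of the same family as Vip. It was at 86.12, 62.59 and 57.83 FPKM in aged sham, against 163.7, 155.3 and 171.4 FPKM in aged injury ganglia. The lowest injured library was above the highest sham library by a wide margin, and the 3 injured libraries lay close together (163.4 ± 8.07 FPKM). Adcyap1 rose 2.41-fold (log2 change 1.27, SE 0.160, limma adjusted p = 0.0056), a call that also held in all 9 fits with 1 library left out and in all 7 other settings.

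Gal (chr19:3409915-3414544, minus strand) encodes galanin, a peptide that acts on a small family of galanin receptors. It was at 47.57, 27.70 and 23.89 FPKM in aged sham, against 93.72, 65.27 and 81.17 FPKM in aged injury libraries. The groups did not overlap, but aged sham replicate 1 stood well above the other aged sham libraries. Gal rose 2.5-fold (log2 change 1.32, SE 0.261, limma adjusted p = 0.0275). Its call was kept in 3 of the 9 fits with 1 library left out, at log2 changes of 1.12 to 1.62; it was lost without young sham 1 (adjusted p = 0.0578), aged sham 2 (0.0993), aged sham 3 (0.101), or aged injury 1 (0.115), 2 (0.0543) or 3 (0.109). With the aged groups fitted alone the adjusted p was 0.0748.

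Vip (chr10:5639218-5647617, plus strand) was near the limit of detection. It was listed at 0, 0 and 0.06 FPKM in young sham, at 0 in the 3 aged sham libraries and at 0.12, 0.05 and 0.16 FPKM in the aged injury libraries. In whole reads recovered from the FPKM steps these are 1 read in the young sham group, 0 in aged sham and 3, 1 and 3 reads in aged injury. A count of 3 reads in a library corresponds to 0.122 to 0.176 FPKM, so no library was clearly above that floor and no fold is given. The other genes stood on more reads per library, from 9 to 119 for Npy, 130 to 1078 for Gal and 1265 to 5520 for Adcyap1, and this floor covers counting error only.

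The peptides of nociceptors did not pass the test after injury. Calca (chr7:114631478-114636357, minus strand), whose transcripts encode calcitonin or CGRP, was at 1226, 986.8 and 950.1 FPKM in aged sham, against 921.8, 953.4 and 1059 FPKM in aged injury libraries. The log2 change of Calca was -0.10 with a 95% interval of -0.33 to 0.13 (limma adjusted p = 0.632), so its difference lay within the spread between libraries. Calcb (chr7:114718643-114723365, plus strand), the gene of beta-CGRP, measured 137.5, 100.6 and 101.1 FPKM in aged sham, against 94.67, 104.6 and 108.0 FPKM in aged injury libraries. It had a log2 change of -0.13 (95% interval -0.39 to 0.13, adjusted p = 0.586). Tac1 (chr6:7554879-7565834, plus strand), the precursor of substance P and neurokinin A, was at 369.7, 301.9 and 269.0 FPKM in aged sham, against 228.4, 273.5 and 273.7 FPKM in aged injury. Those groups overlapped, and the log2 change of Tac1 was -0.27 (SE 0.115, limma adjusted p = 0.232). Its unadjusted 95% interval, -0.53 to -0.012, left out 0.

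The genes tied to itch neurons were not called after injury either. Nts (chr10:102481756-102490486, minus strand), the precursor of neurotensin, had a log2 change of -0.23 (adjusted p = 0.608). Sst (chr16:23889573-23890958, minus strand), the precursor of somatostatin, had a log2 change of -0.23 with a wide 95% interval of -1.04 to 0.57 (adjusted p = 0.775). Nppb (chr4:147985788-147987205, plus strand), the precursor of B-type natriuretic peptide, was at 13.01 to 20.36 FPKM over the 9 libraries and had a log2 change of 0.16 (95% interval -0.16 to 0.49, adjusted p = 0.589). Of 7 other markers of these neurons, 1 was called after injury, against 4.11% of all tested genes. It was the serotonin receptor gene Htr1f, with a log2 change of 0.72 (adjusted p = 0.0326). The summed level of the 7 was 113.9 to 125.1 FPKM in aged sham and 121.3 to 134.9 FPKM in aged injury libraries. The Htr1f call held in 2 of the 9 fits with 1 library left out, those without young sham 2 and without aged sham 1, and its adjusted p rose to as much as 0.115 without aged injury 1 and was 0.0990 with the aged groups fitted alone.

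Of 10 markers of injured neurons, 8 were called higher after injury, as Npy, Adcyap1 and Gal were, against 2.45% of all tested genes. The summed level of the 10 markers went from 255 to 391.5 FPKM in aged sham to 578.6 to 760.8 FPKM in aged injury libraries. Atf3, a transcription factor induced by axon injury, was at 95.61, 27.06 and 27.28 FPKM in the aged sham libraries and at 277.6, 191.8 and 270.7 FPKM in the aged injury libraries. Within the aged sham group Atf3, Gal, Npy and Adcyap1 were all highest in replicate 1, and within the young sham group Atf3, Gal and Adcyap1 were highest in replicate 2. The part of these libraries in the results was not tested beyond leaving each out: without aged sham replicate 1, the injury log2 change of Gal was 1.62 (adjusted p = 0.0112).

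**Figure D2:**
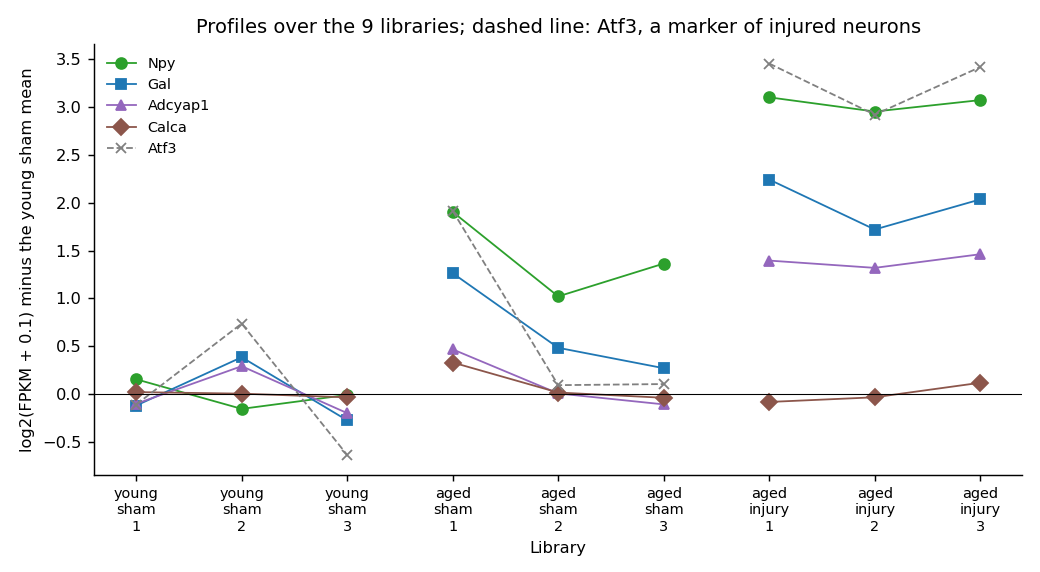
Log2(FPKM + 0.1) minus the young sham mean (vertical axis) of 4 precursor genes and, dashed, the injury marker Atf3 in each of the 9 libraries (horizontal axis). Lines join the libraries of a group only to guide the eye; Gal, Npy and Adcyap1 are high in the 3 aged injury libraries, Calca is not, and aged sham replicate 1 is the highest aged sham library for all 5 genes.

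Aged and young sham ganglia were compared to ask which precursors differed with age. One gene, Npy, was called, as higher in aged ganglia, so that 1 of 9 tested genes passed against 4.02% of all tested genes (2.53% called higher and 1.49% lower). All 9 tested genes had a positive log2 change, with a median of 0.26, against 0.045 over all tested genes. The split over all genes depended on scaling: 445 genes were called higher and 262 lower as deposited, 281 and 536 with library medians set equal, and 388 and 509 with quantile normalization. Groups did not overlap for Npy, Nts and Tac1, which is 3 of 9 genes, against 29.2% of all tested genes.

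Young sham libraries held Npy at 1.61, 1.28 and 1.42 FPKM, and aged sham libraries at 5.63, 3.01 and 3.84 FPKM. The aged sham libraries were all above the young ones and varied more (4.16 ± 1.34 against 1.44 ± 0.165 FPKM; SD, n = 3 each). Npy rose 2.69-fold with age (log2 change 1.43, SE 0.192, limma adjusted p = 0.0167). The call was lost without young sham 1 (adjusted p = 0.0607), young sham 3 (0.0733) or aged sham 3 (0.0671), and with the sham groups fitted alone (0.0867). Without aged sham replicate 1, the library with the highest Npy and Atf3 of its group, the log2 change was 1.19 (adjusted p = 0.0145), and with the Y-linked level as a covariate it was 2.22 (adjusted p = 0.0206). The covariate fit rests largely on that same library and does not separate age from sex.

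Neurotensin and somatostatin precursors were also at higher levels in aged ganglia, but did not pass. Nts was at 15.67, 8.07 and 12.34 FPKM in young sham and at 19.55, 17.99 and 21.99 FPKM in aged sham libraries. The groups of Nts did not overlap, and the log2 change was 0.76 (SE 0.210, limma adjusted p = 0.0679). Sst was at 7.98, 3.36 and 3.89 FPKM in young sham and at 5.58, 12.27 and 12.06 FPKM in aged sham, so the groups overlapped through young replicate 1 and aged replicate 1. The log2 change of Sst was 0.98 (SE 0.357, adjusted p = 0.127), and 1.35 without aged sham replicate 1 (adjusted p = 0.0638). With the Y-linked level as a covariate its sign turned, to -0.15. The 7 other markers of itch neurons summed to 116.5 to 117.9 FPKM in young and to 113.9 to 125.1 FPKM in aged sham libraries, and none was called with age.

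Galanin and the nociceptor peptides showed smaller differences with age. Gal was at 18.21, 25.87 and 16.36 FPKM in young sham libraries, which overlapped with the aged sham libraries, and differed by 0.67 on the log2 scale (SE 0.261, limma adjusted p = 0.144). Tac1 was at 266.5, 256.9 and 254.7 FPKM in young sham, just below the lowest aged sham library at 269.0 FPKM. Its log2 change was 0.26 (SE 0.115, adjusted p = 0.187). The log2 changes of Adcyap1, Calca, Calcb and Nppb with age were between 0.066 and 0.125, with adjusted p between 0.534 and 0.745. Without aged sham replicate 1, the differences of Gal and Tac1 were 0.38 and 0.14, and those of Adcyap1, Calca and Calcb turned to -0.047, -0.0082 and -0.083. For Calca the 95% interval was -0.12 to 0.33.

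**Figure D3:**
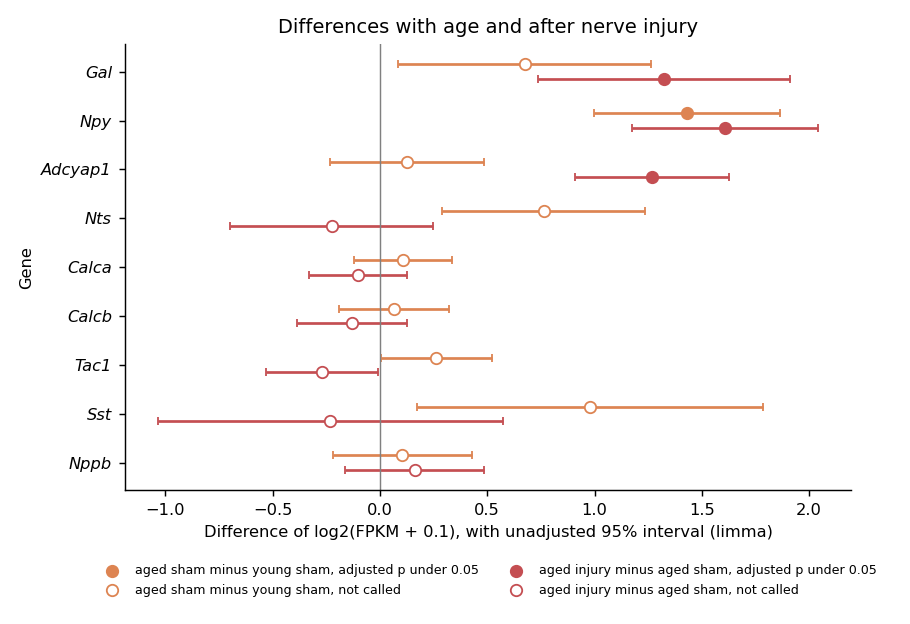
Difference of log2(FPKM + 0.1) (horizontal axis) with unadjusted 95% intervals from limma for the 9 tested precursor genes (vertical axis), with age (orange) and after injury (red). Filled points have an adjusted p under 0.05; Npy is filled in both comparisons, with differences of 1.43 and 1.61, and both comparisons share the aged sham libraries.

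Injured aged ganglia were also set against young sham ganglia, a comparison that differs in age, injury and the sex of the pools and shares libraries with the others. The same 3 genes passed, all higher, of 9 tested, where 13.1% of all tested genes were called (8.2% higher and 4.89% lower). Npy rose 8.22-fold (log2 change 3.04, limma adjusted p = 0.0004), Gal 3.99-fold (log2 change 2.00, adjusted p = 0.0028) and Adcyap1 2.62-fold (log2 change 1.39, adjusted p = 0.0015). With the Y-linked level as a covariate Npy kept its call (log2 change 4.07, adjusted p = 0.00295), while the calls of Gal (log2 change 3.101) and Adcyap1 (2.015) were lost, both at an adjusted p of 0.0697. This fit too rests largely on aged sham replicate 1. In these 3 genes, and no other of the 9, the groups did not overlap, against 35.4% of all tested genes. The log2 changes of Calca, Calcb and Tac1 were 0.0036, -0.063 and -0.0094, and those of Nts, Sst and Nppb were 0.54, 0.75 and 0.26, none of them called.

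The makeup of the precursor RNA shifted with injury. Gal, Npy and Adcyap1 together made up 5.277%, 7.004% and 5.077% of the summed FPKM of the 10 genes in young sham, 7.27%, 6.10% and 5.88% in aged sham and 17.3%, 14.5% and 15.2% in aged injury libraries. The sham groups overlapped in this share, and the injured libraries were all above 2 times the young mean. Calca remained the main precursor but its share was 66.8% ± 0.464 in young sham, 64.6% ± 0.655 in aged sham and 59.6% ± 0.860 in aged injury (SD, n = 3 each), without overlap between the groups. A share falls when other members rise, and the level of Calca itself was not called in any comparison. The ratio of Gal to Npy in FPKM was 11.33, 20.23 and 11.48 in young sham, 8.454, 9.205 and 6.218 in aged sham and 7.201, 5.565 and 6.368 in aged injury, so every aged library was below every young one while the aged groups overlapped. The ratio of Calca to Calcb in FPKM stayed between 8.88 and 9.81 in all libraries.

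**Figure D4:**
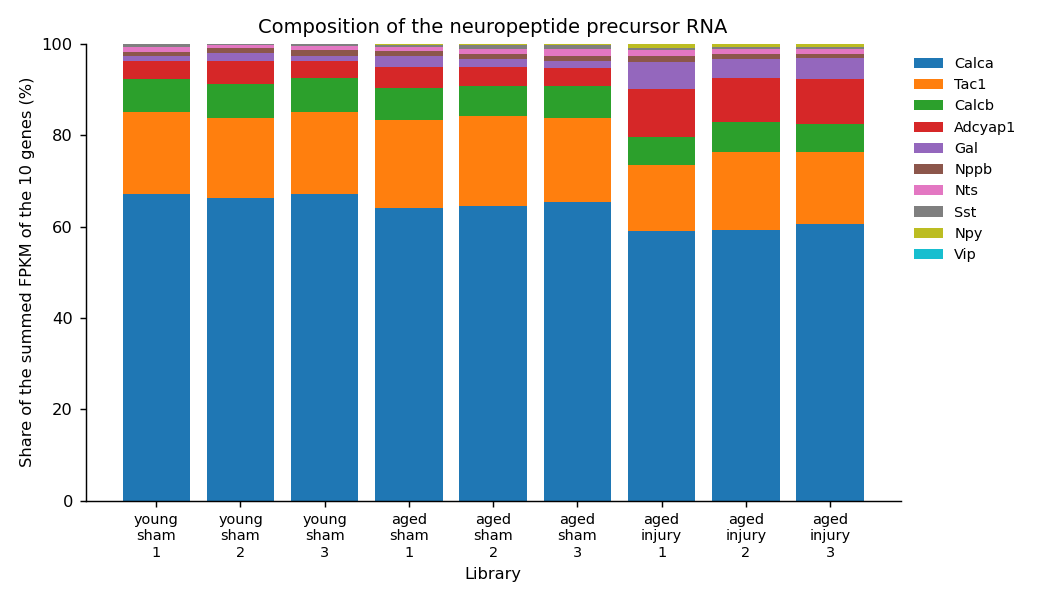
Share of the summed FPKM of the 10 precursor genes (vertical axis, percent) in each of the 9 libraries (horizontal axis), stacked by gene. Calca makes up most of each bar, and Adcyap1 and Gal take a visibly larger part in the 3 aged injury libraries.

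Calca and Calcb lie near each other on chromosome 7 and share sequence, which bears on how well their reads can be told apart. The longest run of bases that Calca-201 and Calcb-203 share exactly, read from GENCODE transcripts, is 61 bases, all coding and joined across an exon junction in both genes, and it is shown because reads lying wholly inside it fit both.
Calca and Calcb, transcript sense, shared run: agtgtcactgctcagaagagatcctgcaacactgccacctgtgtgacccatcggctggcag

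In Calca the run spans chr7:114632541-114634469 on the minus strand and in Calcb chr7:114721711-114722033 on the plus strand, each span with an intron. Of windows of 50 bases in Calca-201, 1.27% also occurred in a transcript of Calcb, and 1.2% of those in Calcb-201 occurred in Calca. No window of 100 bases, of 895 in Calca-201 and 863 in Calcb-201, was shared. The 7 annotated Calca transcripts include those for calcitonin and for CGRP, and a gene-level value does not separate them.

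Receptors of the peptides were examined from a list of 31 genes, of which 30 were in the table and 19 were tested. Galr3 was not analysed here. After injury 1 rose and 2 fell, and 16 were not called, against 4.11% of all tested genes called. The median log2 change was 0.011, against -0.011 over all tested genes. Npy1r, the Y1 receptor of neuropeptide Y, was at 14.39, 13.27 and 11.65 FPKM in aged sham, against 24.23, 24.19 and 27.94 FPKM in aged injury libraries. These groups were far apart, and Npy1r rose 1.94-fold (log2 change 0.95, SE 0.098, limma adjusted p = 0.0043), a call kept in all 9 fits with 1 library left out. The somatostatin receptor gene Sstr1 was at 1.86, 1.58 and 1.67 FPKM in aged sham, against 0.67, 0.82 and 0.74 FPKM in aged injury, and fell by 1.10 on the log2 scale (adjusted p = 0.0118), or by 0.63 with a pseudocount of 1 FPKM (adjusted p = 0.0124). A second somatostatin receptor gene, Sstr2, fell by 0.54 (adjusted p = 0.0144). The Sstr1 call was lost without aged sham 3 (adjusted p = 0.0529), aged injury 1 (0.0572) or aged injury 3 (0.0556), and the Sstr2 call without aged sham 2 (0.0534), aged sham 3 (0.0631), aged injury 1 (0.0713) or aged injury 3 (0.0529), and with the aged groups fitted alone (0.0547).

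With age 2 receptor-list genes rose, none fell and 17 were not called, against 4.02% of all tested genes called. The median log2 change was 0.15, against 0.045 over all tested genes. Sstr2 was at 2.90, 2.74 and 2.84 FPKM in young sham and at 3.915, 4.225 and 4.602 FPKM in aged sham libraries, and rose 1.48-fold (log2 change 0.57, adjusted p = 0.0236). In the aged injury libraries Sstr2 was at 2.71, 2.89 and 3.03 FPKM, a range that overlapped with the young one. Its age call was lost without young sham 1 (adjusted p = 0.0922), young sham 3 (0.0854), aged sham 2 (0.0745) or aged sham 3 (0.0878), and with the sham groups fitted alone (0.0831). Crcp, which encodes a protein of the CGRP receptor complex, had a log2 change of 0.33 (adjusted p = 0.0480) whose call held in 1 of the 9 fits with 1 library left out, the one without young sham 2, with an adjusted p of up to 0.157 in the others, without young sham 3.

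Most genes that cut and finish the precursors were not called. Of 14 tested genes for precursor processing and amidation, 1 rose after injury, against 4.11% of all tested genes called. With age 0 were called by limma, against 4.02% of all tested genes, and 2 had an unadjusted p under 0.05. For such unadjusted counts, here and below, no share over all tested genes is given. Pcsk1, the convertase PC1/3 of the regulated secretory pathway, was at 26.12, 21.93 and 23.10 FPKM in aged sham, against 33.90, 30.66 and 35.29 FPKM in aged injury libraries. Without overlap, Pcsk1 rose 1.40-fold (log2 change 0.49, adjusted p = 0.0145), and the call was lost without aged sham 2 (adjusted p = 0.0578), aged sham 3 (0.0658), aged injury 1 (0.0731) or aged injury 3 (0.0680), and with the aged groups fitted alone (0.0547). The carboxypeptidase gene Cpd had a log2 change of 0.28 (adjusted p = 0.0674), and Pam, the amidating enzyme, one of 0.065 (adjusted p = 0.537).

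Among 13 tested genes of dense core vesicles, 1 rose after injury, against 4.11% of all tested genes called. With age 0 were called by limma, against 4.02% of all tested genes, and 2 had an unadjusted p under 0.05. Syt4, a synaptotagmin of dense core vesicles, was at 80.53, 78.29 and 65.34 FPKM in aged sham, against 131.9, 120.2 and 108.1 FPKM in aged injury libraries. It rose 1.61-fold without overlap of the groups (log2 change 0.69, adjusted p = 0.00765), a call kept in all 9 fits with 1 library left out. Vgf, a granin-like precursor stored in the same vesicles, was at 48.68, 42.80 and 46.84 FPKM in aged sham, against 112.4, 82.58 and 97.62 FPKM in aged injury. Its groups did not overlap, yet the log2 change of 1.07 did not pass (adjusted p = 0.0691), and young sham replicate 2, at 62.33 FPKM, was above the aged sham libraries. The vesicle cargo genes Chga and Chgb had log2 changes of -0.29 and -0.16 after injury (adjusted p = 0.179 and 0.363).

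Of 52 other neuropeptide and related precursor genes, 51 were in the table and 21 were tested. With age 1 rose, none fell and 20 were not called, against 4.02% of all tested genes called. Nmb, the precursor of neuromedin B, rose with age from 67.81, 79.13 and 76.26 FPKM in young sham to 112.0, 93.14 and 94.11 FPKM in aged sham libraries, 1.34-fold (log2 change 0.42, adjusted p = 0.0382). That call held in 1 of the 9 fits with 1 library left out, the one without young sham 2, and the adjusted p reached 0.133 without young sham 1. After injury 0 of 21 were called by limma, against 4.11% of all tested genes. An unadjusted p under 0.05 was found for 10 of the 21, a count with no share over all tested genes given here. The median log2 change was 0.40, against -0.011 over all tested genes. Among these, Adm2 (adrenomedullin 2) had a log2 change of 1.26 (adjusted p = 0.0951), Nmb one of -0.31 (adjusted p = 0.0816) and Penk, the enkephalin precursor, one of -0.53 (adjusted p = 0.138).

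**Figure D5:**
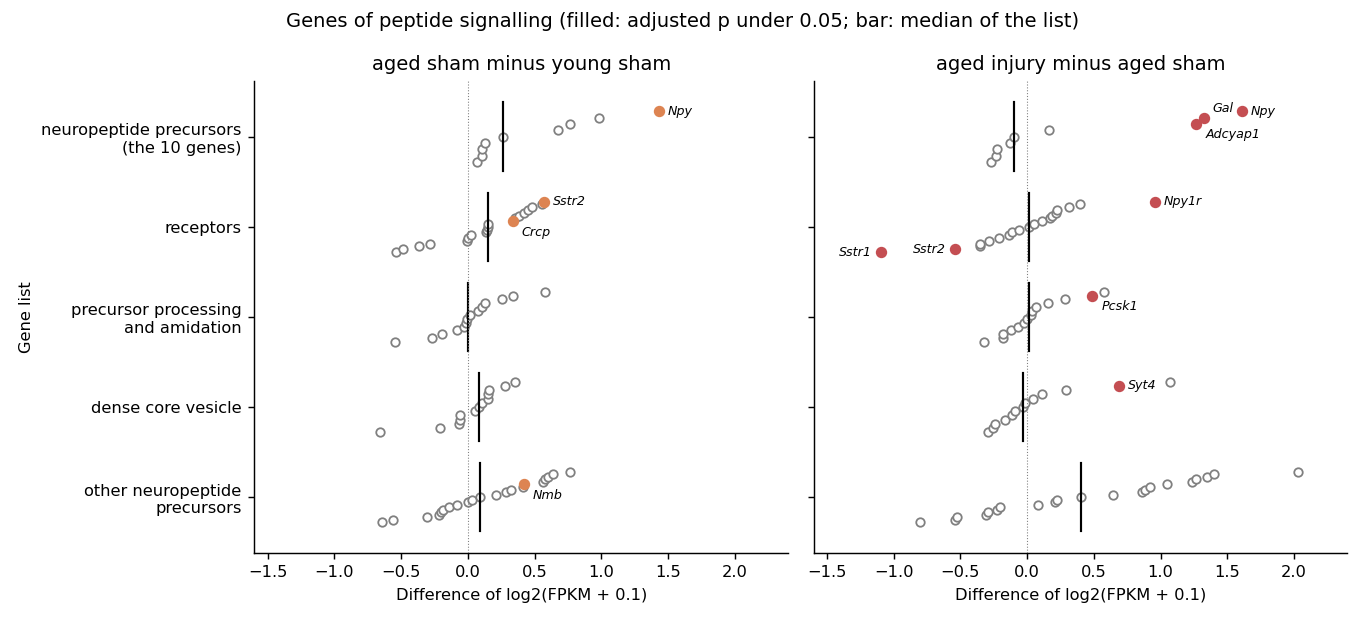
Difference of log2(FPKM + 0.1) (horizontal axis) of each tested gene in 5 lists of peptide signalling (vertical axis), with age (left) and after injury (right). Filled points have an adjusted p under 0.05 and are named, and the bar is the list's median; the precursor list has 3 filled points after injury, all above 1 on the log2 scale.

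Markers of other cells were read in the same libraries, because some of the peptides are also made outside sensory neurons. Npy is known in sympathetic neurons, and of 10 sympathetic markers 6 were never above 0.3 FPKM. Among these, Dbh, which makes noradrenaline, was at most at 0.119 FPKM. The summed sympathetic level, carried by Th, was 25.68 to 34.6 FPKM in young sham, 41.65 to 44.17 FPKM in aged sham and 38.37 to 42.03 FPKM in aged injury. Th, which also marks a class of sensory touch neurons, rose 1.55-fold with age (log2 change 0.63, adjusted p = 0.0360), a call kept in 1 of the 9 fits with 1 library left out, the one without young sham 2, with an adjusted p of 0.132 without young sham 1. The 8 leukocyte markers summed to 99.37 to 103.6 FPKM in young sham, 171.4 to 408.4 FPKM in aged sham and 152.5 to 425.4 FPKM in aged injury, with Ptprc (CD45) highest in aged sham replicate 2 and aged injury replicate 2, at 6.65 and 10.09 FPKM. The 8 Schwann cell markers summed to 2805 to 3225 FPKM in young and to 1671 to 2023 FPKM in aged libraries. The 7 satellite glia markers summed to 1563 to 1621 FPKM in young sham, 1439 to 1591 FPKM in aged sham and 1188 to 1334 FPKM in aged injury. Most of each of these sums was Apoe, at 845 to 1241 FPKM over the 9 libraries. With age 2 of these 7, Ednrb and Gja1, were called lower (log2 changes -0.95 and -0.80, limma adjusted p = 0.00762 and 0.0222). After injury 1 of these 7, Glul, was called, as higher (log2 change 0.41, limma adjusted p = 0.0153). The part of the leukocyte, Schwann cell and satellite glia shifts in the differences was not tested.

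The 8 markers of peptidergic nociceptors summed to 175.1 to 212.4 FPKM in young sham, 246.6 to 261.4 FPKM in aged sham and 223.8 to 239.6 FPKM in aged injury libraries. Where 4.02% of all tested genes were called with age, 2 of these 8 markers rose. These were Sstr2 and Gfra3, a receptor of the GDNF family ligand artemin, the latter with a log2 change of 0.53 (adjusted p = 0.0212). The Gfra3 call was lost without young sham 3 (adjusted p = 0.0854), aged sham 2 (0.0714) or aged sham 3 (0.0610), and with the sham groups fitted alone (0.0877).

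The genes whose profiles over the 9 libraries were most like each precursor were found by the root mean square difference of centred log2(FPKM + 0.1) among 13332 genes at a mean of at least 1 FPKM. For Gal these were Plaur, the urokinase receptor, and Smim3, both at 0.136, against a root mean square of 0.889 of Gal about its own mean. For Adcyap1 they were Rnf122 (0.0864), Fam210b (0.112) and Tifa (0.115), against 0.657 for Adcyap1 itself. For Npy no gene came as close, with Procr at 0.380 and Sprr1a, a protein of regenerating axons, at 0.445, against 1.26 for Npy itself. Calca and Calcb were each among the 5 genes nearest to the other, at a distance of 0.054, against 0.117 for Calca itself and 0.142 for Calcb itself. Other genes were nearer to each, with Ifi27 (0.0464) nearest to Calca and Hint1 (0.0473) nearest to Calcb. For Sst the nearest were Fkbp11 (0.285) and Reln (0.290), against 0.605, and for Nts the nearest was Pcdhb9 (0.183), against 0.409. These are descriptions over 9 libraries that share their groups, and they carry no test.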

How the data were processed

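Whole sciatic dorsal root ganglia were measured by mRNA sequencing in 9 libraries. The deposited values are FPKM, made by the authors, per the file headers. The submitters' processing notes list TopHat2 2.0.12, Bowtie2 2.2.3, HTSeq 0.6.0, edgeR 3.8.6 and, as genome build, mm10, with no role for each tool. Annotation release and strand handling are not given there. Identifiers were matched to symbols through GENCODE M21. The 17601 identifiers with a mean of 0.2 FPKM or more entered limma 3.58.1 (R 4.3.3, variance trend on) as log2(FPKM + 0.1). All 9 libraries entered 1 fit, tests were two-sided, and p-values were adjusted over all genes tested; this scale understates changes of low genes. Each p-value reflects the spread among pools of 2 mice.

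Whole reads were recovered from the FPKM steps (tolerance 0.001 of a read), up to a common factor per gene. Absolute depth is unknown, and 3 libraries a group limit the precision. Alternatives were a pseudocount of 1, no filter, the compared groups alone, a replicate block, equal medians, quantile normalization, a Y-linked covariate and each library left out.

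The 10 genes and the lists were chosen with earlier results of these data known. All 10 are named; from each list up to 6 genes with the smallest p in the age or the injury comparison are named, plus defining markers of other cells and, for each of the 10, genes among the 5 most alike. RefSeq promoter windows (GRCm38.p6) were matched by symbol, 9 of 10; AP-1 and the cyclic AMP response element were searched as exact letters. Proteins were not analysed here.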

Additional observations from a re-analysis of the deposited data

How the results depend on the processing

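After injury, the 3 calls among the precursors (Gal, Npy and Adcyap1) ranged from 2 to 3 over all settings. With age the single call, Npy, was 0 with the compared groups alone and ranged from 0 to 1 with 1 library left out. In aged injury against young sham, 1 call (Npy) was left with the Y-linked covariate, where Gal (log2 change 3.101) and Adcyap1 (2.015) had an adjusted p of 0.0697.

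Over all tested genes the age count of 707 was 239 with no filter, 31 with the compared groups alone, 101 with the replicate block and 5 with the Y-linked covariate, and ranged from 23 (without aged sham 3) to 1536 (without young sham 2) with 1 library left out. It was 40 without young sham 1, 42 without young sham 3, 446 without aged sham 1, 39 without aged sham 2, and 173, 267 and 151 without aged injury 1, 2 and 3. The injury count of 723 was 302 with the compared groups alone and 273 with the replicate block, and ranged from 151 (without aged injury 1) to 740. It was 415 without young sham 1, 254 without aged sham 2, 196 without aged sham 3, 355 without aged injury 2 and 152 without aged injury 3. The count of 2304 in aged injury against young sham was 17 with the Y-linked covariate and ranged from 869 to 2365 with 1 library left out. The cause of these shifts was not tested. With equal medians 287 genes were called higher and 294 lower after injury, against 432 and 291. In aged injury against young sham, 1029 and 1670 were called with equal medians and 1168 and 1241 with quantile normalization, against 1444 and 860.

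Changes of sign occurred only in log2 changes that were not called. With age, Sst turned to -0.15 with the Y-linked covariate, and with 1 library left out Nppb ranged from -0.017 (without young sham 1) to 0.22, Adcyap1 from -0.047 to 0.27, Calca from -0.0082 to 0.18 and Calcb from -0.083 to 0.14 (each lowest without aged sham 1). After injury, Calca turned to 0.035 with quantile normalization and 0.0075 with the Y-linked covariate, and ranged from -0.17 to 0.012 (without aged sham 1) with 1 library left out. Calcb turned to 0.013 with that covariate and ranged from -0.21 to 0.020 (without aged sham 1). In aged injury against young sham, Calca turned to -0.073 with equal medians and ranged from -0.055 (without aged injury 3) to 0.045, and Tac1 ranged from -0.053 to 0.077 (without aged injury 1). With the Y-linked covariate Calcb turned to 0.55, Tac1 to 0.51 and Sst to -0.72.

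Whether the replicate numbers pair the libraries is not settled. Deviations of libraries with the same number correlated at -0.0667 to -0.0288 between young and aged sham. Between aged sham and aged injury they correlated at 0.245, 0.270 and 0.0625, where 1 of 3 pairs was under 0.1. Libraries of these aged groups with different numbers correlated at -0.26 to 0.0409. Each aged library correlated best with its own number in the other aged group, a hint from the data and not from the design. The replicate block changed no call among the precursors. Among the other named genes, the block ended the age calls of Sstr2 (adjusted p = 0.0570), Crcp (0.101), Nmb (0.0814) and Th (0.0648) and the injury call of Htr1f (0.0661). The Y-linked covariate ended the age calls of Sstr2, Crcp, Nmb, Th and Gfra3 (adjusted p from 0.230 to 0.428) but not that of Npy. The log2 changes of Gfra3, Th, Crcp and Nmb were then 0.73, 0.65, 0.57 and 0.68, no smaller than before, with larger SEs, and that of Sstr2 was 0.40. Fits with this covariate rest largely on aged sham replicate 1, at 69.7% of the young Y-linked level. They cannot decide whether a difference goes with age or with sex. With the sham groups alone, the age calls of Crcp (0.108), Nmb (0.105) and Th (0.105) were lost as well.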
